A study of Mus musculus with 6 samples.

Results

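The heat shock proteins and J-domain chaperones of 4T1 cells are described here. They were chosen by name alone, as every row whose symbol begins with Hspa, Hspb, Hspd, Hspe or Hsph and a digit, with Hsp90, or with Dnaja, Dnajb or Dnajc and a digit. The rule found 59 of 13405 rows in each of the 6 files, 57 of them genes and 2 processed pseudogenes. By the place where the protein is known to work, 28 genes were grouped as cytosolic or nuclear, 13 as endoplasmic reticulum (ER) and 9 as mitochondrial, and 7 genes of other or uncertain places were kept apart. RNA was sequenced from 2 groups of 4T1 cells, a mammary carcinoma line of BALB/c mice, with 3 libraries each. The ATM KO cells are labelled as knocked out for Atm, the kinase gene at the head of the response to DNA double-strand breaks, and the vector control cells carry a vector. The labels name no other agent, guide or clone, and they do not say whether libraries came from separate cultures, so a p-value here speaks only of spread among the 6 libraries, which may be technical.

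Chaperones keep proteins from clumping and help them fold. A J-domain protein hands a client to an HSP70 and triggers its ATP hydrolysis, an HSP110 then exchanges the nucleotide, and HSP90 finishes the folding of many kinases and receptors. The cytosol, the ER and the mitochondrion each have their own HSP70 and J-domain partners, and the mitochondrion also has the chaperonin of Hspd1 and Hspe1. Heat shock factor 1 drives the cytosolic set when proteins misfold, through heat shock elements, and the unfolded protein response drives the ER set, through ER stress elements. Tumour cells commonly depend on high chaperone levels.

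RefSeq promoter windows on GRCm38.p6, from 250 bases before to 50 bases after a start, were at hand for 45 of the 59 members. The heat shock element was searched as GAANNTTCNNGAA and TTCNNGAANNTTC, and the ER stress element as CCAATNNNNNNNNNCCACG, both on either strand. A heat shock element was found in 4 of these 45 genes (8.89%), against 179 of 27025 genes with a window (0.662%). An ER stress element was found in 3 of the 45 (6.67%), all among the 11 ER genes with a window, against 37 of 27025 (0.137%). The stretches shown are those that carry the elements upstream of a start, since the results below return to these genes. Capitals mark the matches, and each stretch reads 5′ to 3′ on the strand named with it. For the first that is the strand of Hspe1, and Hspd1 lies on the opposite strand.
Hspe1 and Hspd1, heat shock element, chr1:55088053-55088082, plus strand: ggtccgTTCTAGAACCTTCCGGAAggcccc
Dnajb6, heat shock element, chr5:29735844-29735872, plus strand: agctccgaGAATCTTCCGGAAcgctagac
Hspa5, ER stress element, chr2:34772020-34772048, plus strand: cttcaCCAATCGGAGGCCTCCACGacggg
Hsp90b1, ER stress elements, chr10:86705510-86705664, minus strand: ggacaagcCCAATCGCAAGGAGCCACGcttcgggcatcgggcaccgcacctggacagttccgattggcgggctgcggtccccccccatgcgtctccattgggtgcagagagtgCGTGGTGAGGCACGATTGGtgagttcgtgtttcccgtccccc
Dnajc3, ER stress element, chr14:118937812-118937931, plus strand: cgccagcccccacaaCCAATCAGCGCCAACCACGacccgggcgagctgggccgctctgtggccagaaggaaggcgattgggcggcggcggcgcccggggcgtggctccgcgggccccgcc
Hspe1 and Hspd1 lie head to head, and RefSeq gives Hspd1 2 starts. One lies 216 bases from the start of Hspe1, and the windows of these 2 starts share the stretch shown, which holds 2 matches that overlap. The window of the other Hspd1 start, at 55088243, held 0 matches. Hsp90b1 holds 2 ER stress elements, the second on the opposite strand. In Hsph1, the fourth gene with a heat shock element, the match lay downstream of the start. All these starts are those of RefSeq. By GENCODE M21 the matches shown for Hspe1 and Hspd1, for Dnajb6 and for Hspa5 lie in annotated exons. A match describes letters only, and a window without one does not speak about the factor.

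The recovered reads over all listed rows came to between 22494919 and 32341508 in a library. Atm itself stood at 1959, 2220 and 1591 normalized counts in ATM KO 1 to 3, against 1978, 1613 and 1519 in vector controls 1 to 3, so its mRNA does not check the labels. All 5 epithelial markers were listed, and their summed level lay between 64661 and 101289 in ATM KO and between 54015 and 82732 in vector control libraries. The groups overlapped in Epcam, Krt8, Krt18 and Cdh1. Krt14 was higher in every ATM KO library, at 2223, 1370 and 2311 in ATM KO 1 to 3. It stood at 150, 684 and 654 in vector controls 1 to 3. Ptprc, Pecam1, Dcn and Lum, which define leukocytes, endothelium and fibroblasts, were not among the listed genes. The leukocyte list (1 of 5 listed) summed to between 227 and 806 in ATM KO and between 301 and 1080.1 in vector control libraries. For the fibroblast list (3 of 5 listed) the sums were 344 to 754 in ATM KO and 146 to 547 in vector control libraries. For the endothelial list (1 of 4 listed) they were 0 to 6.84 in ATM KO and 2.10 to 11.7 in vector control libraries. Vector control 1 stood apart from vector controls 2 and 3. Across the 12149 tested genes its log2 values correlated at 0.914 with those of either one. Those controls correlated at 0.997 with each other (Pearson, across genes, which are not independent). Vector control 1 correlated at 0.965 with ATM KO 2. ATM KO 3 correlated at 0.961 with vector controls 2 and 3 and at 0.930 with ATM KO 2. The libraries therefore did not sort by group. Values without vector control 1 stand beside many of the results it moves, but not beside all of them. The epithelial sum was also lowest in vector control 1, and next lowest in ATM KO 2, and its part in the chaperone differences was not tested.

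No chaperone gene passed the test between ATM KO and vector control cells, and the groups differed by less than 2-fold in all 57 members tested. Of these, 26 had a positive and 31 a negative log2 fold change, with a median of -0.02 beside -0.01 over all tested genes. Log2 fold changes were negative in 11 of 27 cytosolic or nuclear members, in 9 of 13 ER members and in 8 of 9 mitochondrial members, and no gene in any of these sets passed. All fold changes subtract vector control from ATM KO libraries after log2(value + 1), fitted with limma over the 12149 genes with a mean of at least 10. By limma 0 members were called at an adjusted p under 0.05, where 0% of all tested genes were called in either direction, and 0 had an unadjusted p under 0.05, where 4.16% of all tested genes did. EdgeR on the recovered reads called 0 members, with 0 at an unadjusted p under 0.05 (4.3% of all genes). DESeq2 called 0 members (0.691% of all genes) with 1, Hspb6, at an unadjusted p under 0.05 (5.9% of all genes). Of the 59 members, 57 reached the mean of 10; Hspa12a and the pseudogene Hspe1-ps3 did not. The 95% interval of the log2 fold change reached a median of 0.64 to either side, and in 40 of the 57 members it lay within a 2-fold change either way. A p that misses the threshold does not show that a gene is unchanged. In bulk RNA, less of a transcript in each cell and fewer cells with it cannot be told apart.

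**Figure D1:**
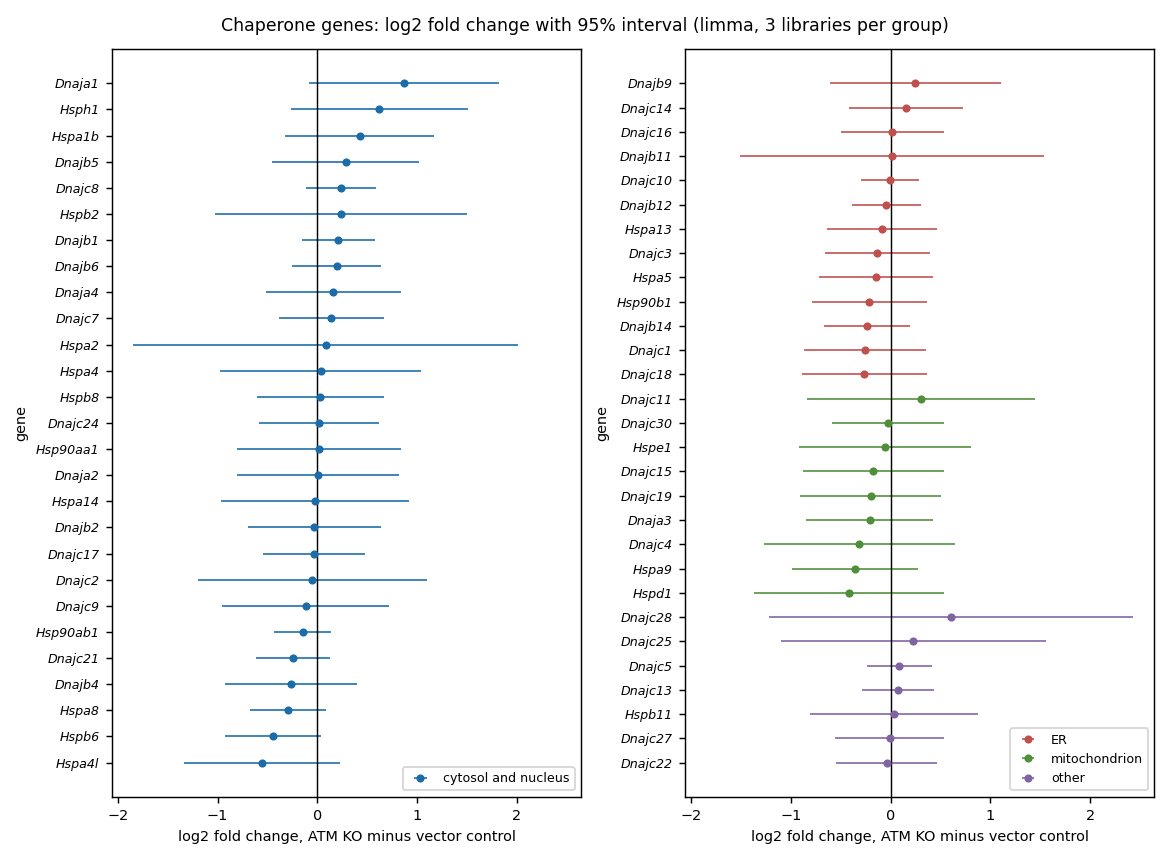
Log2 fold change of each tested chaperone gene, ATM KO minus vector control (points), with the 95% interval from limma (bars), n = 3 libraries per group. Genes run down the page by group and size of change, and every interval includes 0.

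In 3 members all ATM KO libraries were above all controls, which 5.7% of all tested genes did, and in 4 every ATM KO library lay below, which 5.48% did. The members' shares were 5.26% and 7.02%, near that background. The 3 higher were Dnajb1, Dnajb6 and Dnajc8, and the 4 lower were Hsp90ab1, Hspb6, Dnajc21 and Dnajb14. In the remaining 50 members the groups overlapped.

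Chaperone levels varied among the 6 libraries. The ratio of the highest to the lowest of the 6 had a median of 1.80 over the 57 tested members and ranged from 1.07 in Dnajc10 to 7.38 in Dnajc28. Vector control 1 was the highest of the 6 libraries in 25 members (43.9%), where it was so in 31.9% of all tested genes, and the lowest in 11 (19.3%, against 31.2%). It lay outside all 5 others in 36 members (63.2%), as in 63.1% of all tested genes. ATM KO 3 was the lowest library in 21 members (36.8%, against 25.8%). In 20 members vector control 1 and ATM KO 2 were the 2 highest libraries (35.1%, against 27.1%), and in 11 they were the 2 lowest (19.3%, against 26.9%). Summed over all members, the normalized counts were 323894, 349682 and 293090.4 in ATM KO 1 to 3, against 393227, 327258 and 330331 in vector controls 1 to 3, which was between 1.02% and 1.37% of all counts in a library. Hsp90ab1 alone made up between 34.7% and 45.0% of that sum.

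**Figure D2:**
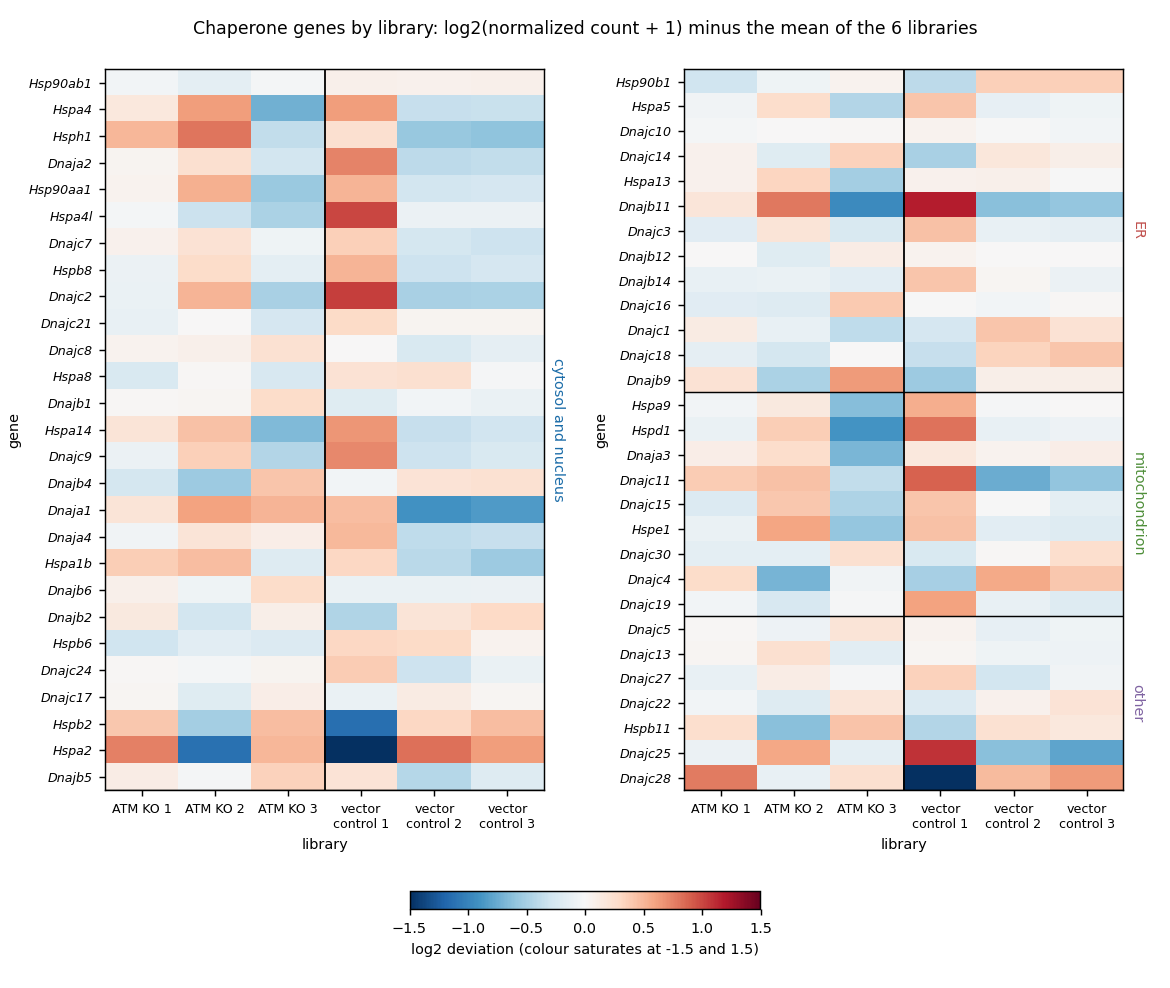
Colour map of the 56 tested chaperone genes (rows, grouped by compartment, highest mean at the top of each group) in the 6 libraries (columns, ATM KO left of the black line). Colour is the log2(normalized count + 1) minus the mean of the 6 libraries. Vector control 1 was the highest library in 25 members and the lowest in 11, and vector controls 2 and 3 have much the same colours.

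The cytosolic HSP90 pair differed little between the groups. Hsp90ab1, the constitutive form (chromosome 17, 45567775 to 45573271, minus strand; coordinates here and below are GENCODE M21 on GRCm38), had the highest level of all members per length, with a mean of 44895 normalized counts per kb of exon. It stood at 130205, 121367 and 131891 in ATM KO 1 to 3, against 142064, 140415 and 141900.2 in vector controls 1 to 3. Every ATM KO library was lower, by a log2 fold change of -0.15 (SE 0.12) with a 95% interval of -0.43 to 0.14, so the groups did not overlap but the gene did not pass. Hsp90aa1, the form that heat induces, stood at 6254, 8707 and 4084 in ATM KO 1 to 3, against 8553, 4974 and 5083 in vector controls 1 to 3. ATM KO 2 and vector control 1 were high together and ATM KO 3 was the lowest, and the log2 fold change was 0.01 (SE 0.34).

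Among the cytosolic HSP70 genes the inducible one averaged higher and the constitutive one lower in ATM KO cells, and neither passed. Hspa1b (chromosome 17, 34956436 to 34959238, minus strand), the classic heat-induced HSP70, stood at 660.5, 706 and 449 in ATM KO 1 to 3, against 636, 387 and 352 in vector controls 1 to 3. ATM KO 1 and 2 lay above every control, vector control 1 was near them, and ATM KO 3 lay between the controls, for a log2 fold change of 0.42 (SE 0.31). Its neighbour Hspa1a, a nearly identical copy, was not among the listed genes, and reads may be lost or shared between the copies. Hspa8, the housekeeping HSP70 that also uncoats clathrin, stood at 1567, 1859 and 1557 in ATM KO 1 to 3, against 2125, 2175 and 1816 in vector controls 1 to 3 (log2 fold change -0.30, SE 0.16). Only ATM KO 2 reached the range of the controls. Hspa8 has many processed copies in the mouse genome, so its counts, with a mean of 430.1 per kb (rank 26 of the 59 members), are uncertain. Hspa2, best known from the testis, stood at 170.3, 45.6 and 142 in ATM KO 1 to 3, against 33.1, 179 and 155 in vector controls 1 to 3, low in ATM KO 2 and vector control 1 alike. Its log2 fold change of 0.08 (SE 0.80) was -0.68 without vector control 1. Hspa14, which works at the ribosome, had a log2 fold change of -0.02 (SE 0.39), and Hspa12a, with a mean of 9.05 normalized counts, was not tested.

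The 3 HSP110 genes, whose products recharge HSP70 with ATP, had log2 fold changes above, near and below 0. Hsph1 (chromosome 5, 149614287 to 149636376, minus strand), the heat-induced one, stood at 11375, 14037 and 6249 in ATM KO 1 to 3, against 9516, 5448 and 5297 in vector controls 1 to 3. The lowest knockout library, ATM KO 3, was above vector controls 2 and 3 and below vector control 1. Its log2 fold change of 0.62 (SE 0.37) was the second largest in size among the members and had a 95% interval of -0.27 to 1.51. Hspa4 stood at 15209, 21048 and 8278 in ATM KO 1 to 3, against 21204, 10726 and 10894 in vector controls 1 to 3, with group means of 14845 ± 6393 in ATM KO and 14275 ± 6001 in vector control cells (SD, n = 3 each) and a log2 fold change of 0.03 (SE 0.42). Hspa4l stood at 4794, 3912 and 3544 in ATM KO 1 to 3, against 9860.0, 4628 and 4621 in vector controls 1 to 3. Vector control 1 stood far above the other 5 libraries, and the log2 fold change of -0.56 (SE 0.33) became -0.19 without it.

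Of the small heat shock proteins, which hold unfolded clients without ATP, Hspb6 was lower in every ATM KO library. Hspb6 (chromosome 7, 30552178 to 30555443, plus strand) stood at 246, 272 and 264 in ATM KO 1 to 3, against 379, 372 and 316 in vector controls 1 to 3, with means of 261 ± 12.9 in ATM KO and 356 ± 34.3 in vector control cells (SD, n = 3 each). The log2 fold change was -0.44 (SE 0.20), and the adjusted p was 0.999 by limma and 0.574 by DESeq2. It kept its direction with any 1 library left out, between -0.53 and -0.40. Hspb8, which works with Bag3 in clearing aggregates, stood at 2547, 3279 and 2457 in ATM KO 1 to 3, against 3871, 2190.1 and 2282 in vector controls 1 to 3, highest in vector control 1. Hspb2, at 139 ± 46.2 in ATM KO and 126 ± 61.5 in vector control cells, was low in vector control 1 and ATM KO 2. Its log2 fold change of 0.24 (SE 0.52) was -0.27 without vector control 1. Hspb1 was not analysed here.

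**Figure D3:**
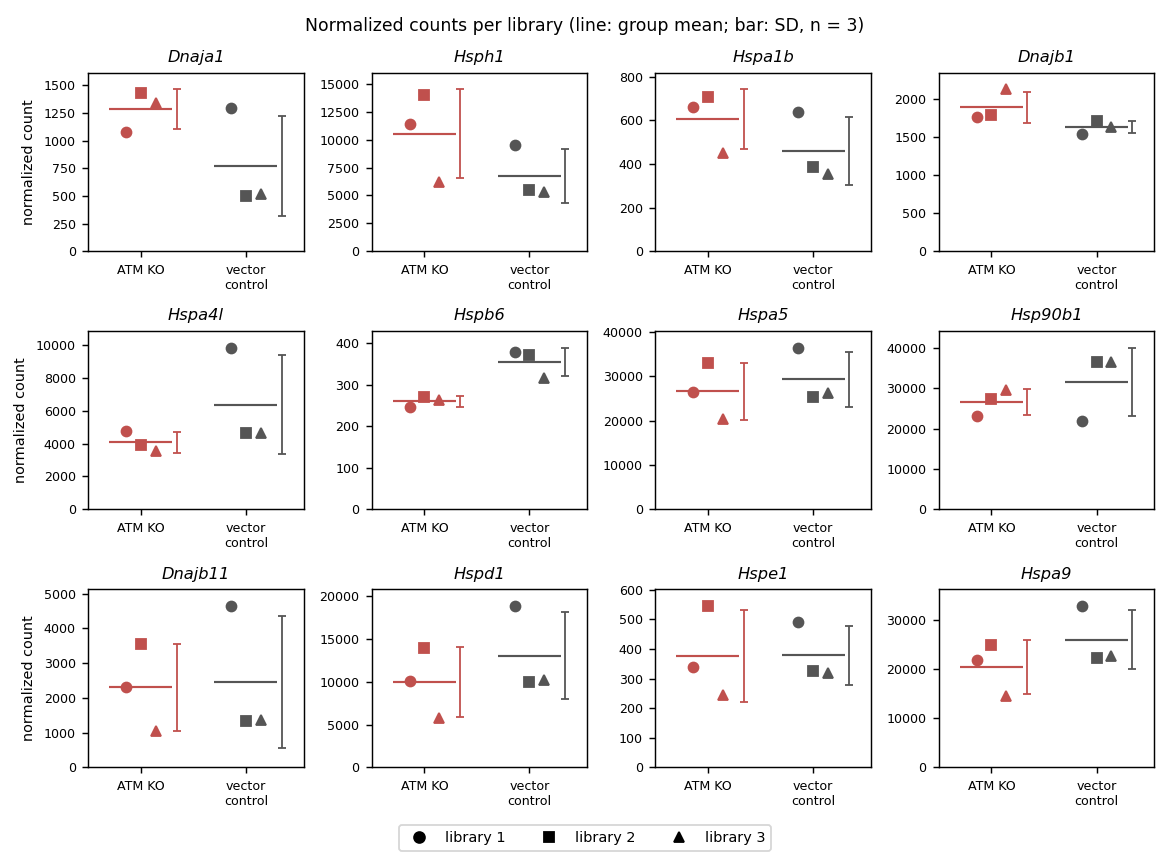
Normalized counts of 12 chaperone genes in each library (markers: circle for library 1, square for 2, triangle for 3), with ATM KO left and vector control right in each panel; the line is the group mean and the bar the SD (n = 3). In most panels vector control 1 lies apart from vector controls 2 and 3. Hspb6 and Dnajb1 are the panels in which the groups do not overlap.

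Dnaja1 had the largest difference of all members, and it rested on 2 of the 3 controls. Dnaja1 (chromosome 4, 40722150 to 40737149, plus strand), a class A J-domain partner of HSP70, stood at 1079, 1425 and 1339.9 in ATM KO 1 to 3, against 1295, 500.1 and 521 in vector controls 1 to 3. The ATM KO libraries and vector control 1 lay together, and vector controls 2 and 3 lay apart below them, so the groups overlapped. The log2 fold change was 0.87 (SE 0.39) with a 95% interval of -0.08 to 1.82. Without vector control 1 it was 1.32, and Dnaja1 was then the only member called by DESeq2, at an adjusted p of 1.34e-06, where 4.45% of all tested genes were called. Limma without that library gave an adjusted p of 0.165 and edgeR one of 0.199. GENCODE names 1 pseudogene after Dnaja1. Its relative Dnaja2 stood at 7963, 9199.8 and 6435 in ATM KO 1 to 3, against 13045, 5917 and 6031 in vector controls 1 to 3, a log2 fold change of 0.01 (SE 0.34). Dnaja4 averaged 611 ± 50.7 in ATM KO and 568 ± 207 in vector control cells (SD, n = 3 each), with a log2 fold change of 0.16 (SE 0.28).

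Of the 5 class B J-domain genes of the cytosol, 3 had positive and 2 negative log2 fold changes. Dnajb1 (chromosome 8, 83608193 to 83612653, plus strand), the main heat-induced J-domain protein, stood at 1762, 1778 and 2119 in ATM KO 1 to 3, against 1539, 1699.7 and 1633 in vector controls 1 to 3. Every ATM KO library exceeded every control, with a log2 fold change of 0.21 (SE 0.15). Dnajb6, which keeps polyglutamine proteins soluble and whose promoter held a heat shock element, stood at 490.2, 446 and 562 in ATM KO 1 to 3, against 433, 432 and 436 in vector controls 1 to 3. The controls were nearly equal, ATM KO 2 exceeded them by a little and ATM KO 3 by most, for a log2 fold change of 0.20 (SE 0.18). Dnajb5, at 81.7 ± 10.8 in ATM KO and 67.6 ± 15.5 in vector control cells, had a log2 fold change of 0.29 (SE 0.31), and Dnajb2 one of -0.03 (SE 0.28). Dnajb4 stood at 962, 791 and 1549 in ATM KO 1 to 3, against 1129, 1339 and 1353 in vector controls 1 to 3 (log2 fold change -0.27, SE 0.28), with ATM KO 3 above and ATM KO 1 and 2 below every control.

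The class C genes of this compartment carry a J domain on proteins of many trades. Dnajc8, a splicing-linked protein, stood at 1946, 1986 and 2196 in ATM KO 1 to 3, against 1892, 1604 and 1707 in vector controls 1 to 3, higher in every ATM KO library (log2 fold change 0.24, SE 0.15). Dnajc21, which acts in maturation of the large ribosomal subunit, stood at 1962, 2129.6 and 1774 in ATM KO 1 to 3, against 2579, 2178 and 2182 in vector controls 1 to 3, lower in every ATM KO library (log2 fold change -0.24, SE 0.15). Dnajc2, which sits at the ribosome with Hspa14, stood at 1983, 3009 and 1508 in ATM KO 1 to 3, against 4335, 1512 and 1529.8 in vector controls 1 to 3. Its log2 fold change of -0.05 (SE 0.48) was 0.45 without vector control 1. Vector control 1 was the highest and ATM KO 2 next, as they were for Dnajc9, a histone chaperone, at 1114, 1512 and 874 in ATM KO 1 to 3, against 1949, 955 and 1009 in vector controls 1 to 3. Dnajc7, which binds HSP70 and HSP90, had a log2 fold change of 0.14 (SE 0.22), Dnajc17 one of -0.03 (SE 0.21) and Dnajc24, which acts in diphthamide synthesis, one of 0.02 (SE 0.25). Over the 27 tested cytosolic and nuclear members the median log2 fold change was 0.02, with 16 positive and 11 negative. The median was 0.21 without vector control 1 and turned to -0.01, -0.12 and -0.03 without ATM KO 1, vector control 2 and vector control 3.

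Of the 13 ER chaperones 4 had a positive and 9 a negative log2 fold change (median -0.09), and none passed. The median was -0.03 without vector control 1 and -0.23 without ATM KO 2. Hspa5 (chromosome 2, 34771970 to 34777547, plus strand), the ER HSP70 known as BiP which keeps the stress sensors of the ER inactive until misfolded protein draws it away, stood at 26496, 32924 and 20267 in ATM KO 1 to 3, against 36485, 25243 and 26128 in vector controls 1 to 3. Vector control 1 and ATM KO 2 were the highest and ATM KO 3 the lowest, and the log2 fold change of -0.15 (SE 0.24) became 0.02 without vector control 1 and 0.03 without ATM KO 3. Hsp90b1 (chromosome 10, 86690209 to 86705509, minus strand), the ER HSP90 known as GRP94, stood at 23233, 27280.1 and 29551 in ATM KO 1 to 3, against 21835, 36476 and 36583 in vector controls 1 to 3. Here vector control 1 was the lowest library, the opposite of Hspa5, and all 3 ATM KO libraries lay between it and vector controls 2 and 3. The log2 fold change of -0.21 (SE 0.24) was -0.46 without vector control 1. The ratio of Hspa5 to Hsp90b1 counts was 1.14, 1.21 and 0.686 in ATM KO 1 to 3, against 1.67, 0.692 and 0.714 in vector controls 1 to 3. The balance of the 2 genes was tipped to Hspa5 in ATM KO 1, ATM KO 2 and vector control 1 and to Hsp90b1 in the other 3 libraries, and both promoters hold the ER stress element shown above.

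The ER J-domain genes steer BiP to folding, secretion or degradation. Dnajb11, which brings BiP to nascent chains, stood at 2316, 3556 and 1057 in ATM KO 1 to 3, against 4654, 1331 and 1376 in vector controls 1 to 3. Its 4.40-fold range was the widest of the ER set, yet the group means were close, at 2309.6 ± 1249 in ATM KO and 2454 ± 1906 in vector control cells (SD, n = 3 each). The log2 fold change of Dnajb11, 0.01 (SE 0.63), was 0.60 without vector control 1. Dnajc3, an ER-lumen J-domain protein with the ER stress element shown above, stood at 2031, 2606 and 1945 in ATM KO 1 to 3, against 3087, 2116 and 2075 in vector controls 1 to 3, with vector control 1 and ATM KO 2 highest as for Hspa5 (log2 fold change -0.13, SE 0.22). Dnajb9, which restrains the sensor Ire1, ran the opposite way, at 382, 236 and 511 in ATM KO 1 to 3, against 225, 349 and 348 in vector controls 1 to 3, with vector control 1 and ATM KO 2 lowest (log2 fold change 0.25, SE 0.36). Dnajc10, an ER reductase that helps degradation, was the steadiest of all members, at 4421, 4554 and 4569 in ATM KO 1 to 3, against 4707, 4499 and 4399 in vector controls 1 to 3, and its log2 fold change was -0.01 (SE 0.12) with an interval of -0.30 to 0.28. Dnajb14, a membrane J-domain protein, was lower in every ATM KO library, at 1612, 1629.9 and 1563 in ATM KO 1 to 3, against 2330.5, 1772 and 1634 in vector controls 1 to 3 (log2 fold change -0.24, SE 0.18), and its partner Dnajb12 had a log2 fold change of -0.04 (SE 0.14). Dnajc1 stood at 524 ± 91.1 in ATM KO and 632 ± 142 in vector control cells and Dnajc18 at 431 ± 39.7 in ATM KO and 529.7 ± 139.6 in vector control cells, with log2 fold changes of -0.26 (SE 0.25) and -0.26 (SE 0.26), and both were low in vector control 1. Hspa13, a truncated HSP70 of microsomes, had a log2 fold change of -0.09 (SE 0.23), Dnajc14 one of 0.15 (SE 0.24) and Dnajc16 one of 0.02 (SE 0.21).

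Mitochondrial chaperones had 1 positive and 8 negative log2 fold changes, the most one-sided group, with a median of -0.20 beside -0.01 over all tested genes. None passed, and in 0 of the 9 were the groups apart, where 11.2% of all tested genes were. Vector control 1 and ATM KO 2 were the 2 highest libraries in 6 of the 9, and ATM KO 3 was the lowest in 5. Hspa9, the matrix HSP70 that pulls in imported proteins, stood at 21909.7, 25017 and 14449.9 in ATM KO 1 to 3, against 32975, 22295 and 22732 in vector controls 1 to 3. ATM KO 2 lay within the range of the controls, ATM KO 1 just below it and ATM KO 3 far below it, for a log2 fold change of -0.36 (SE 0.26) with an interval of -0.99 to 0.27. Hspd1 (chromosome 1, 55077835 to 55088243, minus strand), the HSP60 ring, stood at 10059, 13957 and 5768 in ATM KO 1 to 3, against 18903, 9987 and 10224 in vector controls 1 to 3 (log2 fold change -0.42, SE 0.39). Without vector control 1 the log2 fold change was -0.18 for Hspa9 and -0.12 for Hspd1, and the median of the group ranged from -0.37 without ATM KO 2 to -0.07 without ATM KO 3, and was -0.12 without vector control 1.

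Hspe1 (chromosome 1, 55088132 to 55091307, plus strand), the HSP10 lid of the same chaperonin, shares the promoter stretch shown above with Hspd1. It stood at 338, 546 and 243 in ATM KO 1 to 3, against 491, 325 and 317 in vector controls 1 to 3, highest in ATM KO 2 and vector control 1 and lowest in ATM KO 3, the same 3 libraries that were highest and lowest for Hspd1. Its log2 fold change was -0.06 (SE 0.36). Per kb of exon the mean level was 4346 for Hspd1 and 256 for Hspe1. GENCODE names 6 pseudogenes after Hspe1 and 5 after Hspd1, and the annotated 5′ ends of both genes overlap, so reads may be lost or shared. The ratio of Hspd1 to Hspe1 counts was 29.8, 25.5 and 23.7 in ATM KO 1 to 3, against 38.5, 30.7 and 32.2 in vector controls 1 to 3. The ratio was lower in every ATM KO library, and over all 1596 pairs of tested members the ratios of 9.77% did not overlap between the groups.

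Among the mitochondrial J-domain genes the differences were small beside the spread. Dnaja3, the matrix partner of Hspa9, stood at 2637, 2967 and 1538 in ATM KO 1 to 3, against 2755, 2564 and 2642 in vector controls 1 to 3. ATM KO 3 was far below the other 5 libraries. The log2 fold change of -0.21 (SE 0.26) was 0.08 when that library was left out. Dnajc15 and Dnajc19, both of the inner-membrane import motor, stood at 520.2 ± 168 in ATM KO and 576 ± 122 in vector control cells and at 156 ± 13.0 in ATM KO and 185 ± 59.9 in vector control cells (SD, n = 3 each), with log2 fold changes of -0.17 (SE 0.29) and -0.20 (SE 0.30). Dnajc11, an outer-membrane protein tied to cristae, was the single positive member, at 2716, 2830.0 and 1611 in ATM KO 1 to 3, against 3834, 1242 and 1379.5 in vector controls 1 to 3. Vector controls 2 and 3 were the lowest, vector control 1 the highest, and the log2 fold change of 0.30 (SE 0.48) was 0.82 without vector control 1. Dnajc4 stood at 200.4 ± 64.1 in ATM KO and 253 ± 88.2 in vector control cells (log2 fold change -0.32, SE 0.40), and Dnajc30, which is linked to the respiratory chain, had a log2 fold change of -0.03 (SE 0.23).

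The 7 genes of other places had 5 positive and 2 negative log2 fold changes and a median of 0.08. Dnajc5, the cysteine string protein of vesicles, stood at 7079, 6593 and 7944 in ATM KO 1 to 3, against 7250.2, 6389 and 6669.6 in vector controls 1 to 3 (log2 fold change 0.09, SE 0.14, interval -0.24 to 0.42). Dnajc13, which acts on endosomes, had a log2 fold change of 0.08 (SE 0.15). Hspb11, named as a small heat shock protein but a part of the ciliary transport complex, stood at 479.8 ± 166 in ATM KO and 456 ± 106 in vector control cells (log2 fold change 0.04, SE 0.35). Dnajc28 stood at 129, 69.0 and 88.3 in ATM KO 1 to 3, against 17.5, 104 and 117 in vector controls 1 to 3. Vector control 1 was far below the other 5 libraries, and the log2 fold change of 0.61 (SE 0.76) was -0.25 without it. Dnajc25 stood at 133, 211 and 127 in ATM KO 1 to 3, against 299, 90.9 and 80.9 in vector controls 1 to 3, with vector control 1 the highest and the other controls the lowest. Its log2 fold change of 0.23 (SE 0.55) was 0.82 without vector control 1. The log2 fold change was -0.01 (SE 0.23) for Dnajc27 and -0.04 (SE 0.21) for Dnajc22. The pseudogene Hspa9-ps1 stood at 22.5 ± 10.2 in ATM KO and 23.4 ± 4.93 in vector control cells (log2 fold change -0.14, SE 0.49), and Hspe1-ps3, with a mean of 4.16, was not tested.

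Leaving out vector control 1 moved the median log2 fold change to 0.21 for the cytosolic and nuclear members, -0.03 for the ER members, -0.12 for the mitochondrial members and 0.11 for the 7 genes of other places. In 14 of the 57 tested members every ATM KO library then lay above vector controls 2 and 3 (24.6%), against 19.6% of all tested genes, and in 9 every one lay below (15.8%), against 21.8%. Of the 14, 12 were among the 27 cytosolic or nuclear members (44.4%, against 19.6% of all tested genes), and 4 of those 27 lay below (14.8%, against 21.8%). In the heat shock factors and cytosolic co-chaperones described below, 7 of 23 lay above (30.4%) and 1 below (4.35%). Hsph1, Hspa1b and Dnaja4 had log2 fold changes of 0.90, 0.68 and 0.44 without that library, and Dnajc7 one of 0.36. Among the lower ones, Hsp90b1, Dnajc18 and Dnajc4 had log2 fold changes of -0.46, -0.50 and -0.64. With vector control 1 left out limma called 0 members, with 9 at an unadjusted p under 0.05 (14.6% of all tested genes), edgeR called 0, and DESeq2 called 1, Dnaja1.

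**Figure D4:**
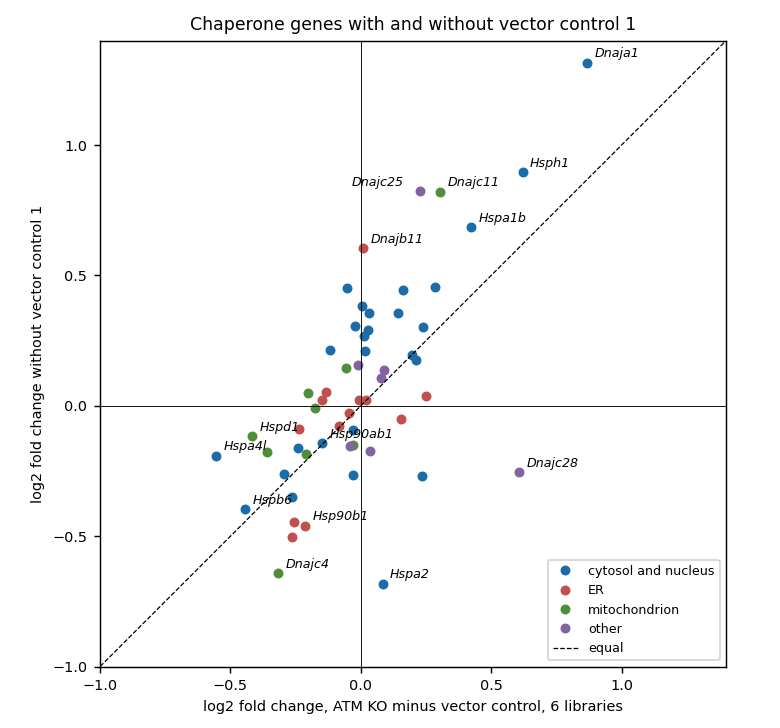
Log2 fold change of each tested chaperone gene (ATM KO minus vector control) with all 6 libraries (x axis) against the same without vector control 1 (y axis), coloured by compartment; the dashed line marks equal values. Dnaja1 reaches 1.32 on the y axis, and Dnajc28 and Hspa2, above 0 on the x axis, lie at -0.25 and -0.68 on the y axis.

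The partners of these chaperones, taken from lists of co-chaperones and folding factors, also held no gene that passed limma, edgeR or DESeq2 with all 6 libraries. Of 23 tested heat shock factors and cytosolic co-chaperones, 15 had a positive and 8 a negative log2 fold change, with a median of 0.03, and 0 had an unadjusted p under 0.05 by limma. Cdc37, which loads kinases onto HSP90, stood at 12139, 12287 and 12743 in ATM KO 1 to 3, against 10372, 11972 and 11945 in vector controls 1 to 3, higher in every ATM KO library (log2 fold change 0.12, SE 0.12), and Bag6, a holder of membrane proteins, at 11714 ± 1881 in ATM KO and 12512 ± 1817 in vector control cells. Unc45a, a myosin co-chaperone, had the largest difference of the list, 0.35 (SE 0.46) as log2 fold change, which was 0.81 without vector control 1. All 13 tested subunits of the TRiC chaperonin and prefoldin, which deliver and fold actin and tubulin, had negative log2 fold changes (0 positive), with a median of -0.23 that was -0.06 without vector control 1. Cct4 stood at 14829, 13037 and 10819 in ATM KO 1 to 3, against 21977, 15761 and 15338 in vector controls 1 to 3 (log2 fold change -0.45, SE 0.20) and Cct2 at 23701, 25181 and 22257 in ATM KO 1 to 3, against 32490.4, 25546 and 25563 in vector controls 1 to 3, both lower in every ATM KO library, and Tcp1 had a log2 fold change of -0.23 (SE 0.17). Without vector control 1 these log2 fold changes were -0.28 for Cct4, -0.11 for Cct2 and -0.06 for Tcp1. The groups were apart in 3 of the 13 (23.1%), with ATM KO lower each time, as in 5.48% of all tested genes. The third was Vbp1 (-0.22, SE 0.14), named after its values were seen.

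The other ER folding and unfolded protein response genes, 22 of them tested, split into 4 with a positive and 18 with a negative log2 fold change (median -0.17). By limma 3 of the 22 had an unadjusted p under 0.05, where 4.16% of all tested genes did. These were Ddit3, P4hb and Herpud1. The groups were apart in 5 of the 22 (11.2% of all tested genes). ATM KO was lower in 4 (18.2%, against 5.48% of all) and higher in 1 (4.55%, against 5.7% of all). Ddit3, which encodes the stress factor CHOP, stood at 275, 135 and 259 in ATM KO 1 to 3, against 288, 573 and 535 in vector controls 1 to 3, for a log2 fold change of -1.06 (SE 0.40), lower in every ATM KO library but with an adjusted p of 0.999 by limma and 0.431 by DESeq2. Herpud1, named after its values were seen, had a log2 fold change of -0.56 (SE 0.22). P4hb, the protein disulfide isomerase, stood at 23439, 21419 and 24895 in ATM KO 1 to 3, against 25752, 36110.0 and 35981 in vector controls 1 to 3 (log2 fold change -0.47, SE 0.18), and Canx, the lectin chaperone calnexin, at 22885 ± 3431 in ATM KO and 27298 ± 1408 in vector control cells. Of 15 tested mitochondrial folding and protease genes, 2 were positive and 13 negative, with a median of -0.10. Trap1, the mitochondrial HSP90, stood at 6025, 6331 and 3815 in ATM KO 1 to 3, against 5998, 7548 and 7333 in vector controls 1 to 3 (log2 fold change -0.40, SE 0.23), and the protease Lonp1 at 6129 ± 481 in ATM KO and 8631 ± 2259 in vector control cells (log2 fold change -0.46, SE 0.23). Without vector control 1, DESeq2 called P4hb, Ddit3 and Ero1l lower in the ER list and Lonp1 lower in the mitochondrial list, in a fit that called 4.45% of all tested genes, and limma and edgeR called 0 of either.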

How the data were processed

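RNA of 6 libraries was measured by RNA-seq, 3 ATM KO and 3 vector control. Per the submitters' processing notes the tools were DESeq2, HTSeq, STAR, SAMtools, cutadapt and Trim Galore and the builds GRCm38 and mm9, with no version, order or strand setting. The deposited values are a signal, gene reads divided by 1 factor per library, and 100% of them came out as whole reads within 0.01 reads; they are called normalized counts here. The authors deposited 1 table per library, and columns not used number 0.

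Symbols and IDs are the files' own, coordinates and exon lengths are GENCODE M21 on GRCm38 (13249 of 13405 IDs matched), and promoter windows are RefSeq on GRCm38.p6. Genes with a mean of at least 10 were tested with limma 3.58.1 (R 4.3.3) on log2(value + 1), with a mean-variance trend and Benjamini-Hochberg adjustment over 12149 genes. EdgeR 4.0.16 (quasi-likelihood) and DESeq2 1.42.0 on the recovered reads, other pseudocounts, filters and scalings, a replicate block and each library left out were the alternatives. The scripts were tested on simulated data, where finding planted changes was required only at a spread below that of these data. That checks the code and not the power to find changes here.

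The members and lists were chosen with earlier results of these data known. Values per library are given for a panel of main chaperones, the 5 members of each compartment with the highest mean and the 8 largest differences in each direction at a mean of at least 50; of other members, those whose groups do not overlap or that show the library pattern were named after their values were seen. From each partner list came the 2 genes with the highest mean and the 1 with the largest difference. Hspa1a and Hspb1 were not analysed here.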

Additional observations from a re-analysis of the deposited data

How the results depend on the processing

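The count of called members was 0 under every alternative except DESeq2 without vector control 1 (1, Dnaja1), an alternative chosen after seeing the data, as was scaling by TMM reads at the mean depth. Over all genes the count was 0 by limma, also with pseudocounts of 0.1 and 10, other filters and scalings, the replicate block and any 1 library left out, and 0 by edgeR with and without vector control 1; DESeq2 called 84, and 541 without vector control 1. With any 1 library left out, fewer libraries have to be separated. Members whose groups did not overlap then numbered 3 to 14 higher and 4 to 9 lower in ATM KO cells. Both counts were highest without vector control 1, where 19.6% of all tested genes lay higher and 21.8% lower. They were 4 and 5 without ATM KO 1, 5 and 8 without ATM KO 2, and 6 and 7 without ATM KO 3. They were 3 and 4 without vector control 2, and 3 and 5 without vector control 3. With a library other than vector control 1 left out, the share over all tested genes was not computed. Those counts therefore do not speak about chaperones in particular. The cause was not tested. The ER median ranged from -0.23 to -0.029. The labels do not say whether same-numbered libraries were paired. Their deviations from the group means correlated at -0.02, -0.58 and 0.53. These values cannot decide it, since deviations from a mean of 3 libraries are not independent. With the replicate block 0 members and 0 genes were called.

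Of the 40 members named by rule, 20 kept their direction under every alternative. By edgeR and DESeq2 the log2 fold change was -0.0861 and -0.0863 for Dnajb11 (0.01 by limma), -0.0848 and -0.0821 for Dnaja2 (0.01), and -0.0128 and -0.00888 for Hspb8 (0.03); the cause was not tested. With 1 library left out the direction turned in 33 of the 57 tested members, 20 of them among these 40. Of those 20, in the ER set the log2 fold changes ranged from -0.32 to 0.033 for Hspa5, -0.028 to 0.021 for Dnajc10, -0.052 to 0.28 for Dnajc14, -0.27 to 0.15 for Hspa13, -0.38 to 0.60 for Dnajb11, -0.26 to 0.054 for Dnajc3 and -0.0061 to 0.55 for Dnajb9. In the cytosol they ranged from -0.27 to 0.40 for Hspa4, -0.19 to 0.38 for Dnaja2, -0.25 to 0.30 for Hsp90aa1 and -0.12 to 0.29 for Hspb8. In the mitochondrion they ranged from -0.40 to 0.077 for Dnaja3, -0.42 to 0.016 for Dnajc15, -0.37 to 0.22 for Hspe1 and -0.35 to 0.049 for Dnajc19. Elsewhere they ranged from -0.027 to 0.18 for Dnajc13, -0.15 to 0.16 for Dnajc27, -0.15 to 0.051 for Dnajc22, -0.17 to 0.36 for Hspb11 and -0.25 to 1.08 for Dnajc28. The other 13 that turned were Hspa2, with -0.68 to 0.67, and Hspa14, Hspb2, Dnajb2, Dnajb12, Dnajc2, Dnajc9, Dnajc16, Dnajc17, Dnajc24, Dnajc25, Dnajc30 and the pseudogene Hspa9-ps1. With 3 libraries per group, the 95% interval reached 0.29 to either side at its narrowest and 1.93 at its widest, on the log2 scale. These intervals are per gene and not adjusted for the number of genes. A call needed an adjusted p under 0.05, so differences above that size could also go uncalled. Over all tested genes log2 fold changes ran from -4.79 to 5.30, and limma called 0.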

Other observations

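The ratio of Hspa4 to Hsph1, both HSP110 genes of the cytosol, was lower in every ATM KO library, at 1.34, 1.50 and 1.32 in ATM KO 1 to 3, against 2.23, 1.97 and 2.06 in vector controls 1 to 3. This pair was chosen after its values were seen, and of all 1596 pairs of tested members 9.77% had ratios that did not overlap between the groups. Each gene was highest, within its group, in ATM KO 2 and in vector control 1. The ratio of Hsp90ab1 to Hsp90aa1 did not separate the groups, at 20.8, 13.9 and 32.3 in ATM KO 1 to 3, against 16.6, 28.2 and 27.9 in vector controls 1 to 3.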
